A study of Mus musculus with 2 samples.

Results

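The annexins Anxa1 to Anxa10 were examined in RNA of the mouse intestine, in wild-type (WT) mice and in mice labelled ERAP1+/-. ERAP1 is the aminopeptidase of the endoplasmic reticulum that trims peptides for loading on MHC class I molecules. The 10 genes were chosen by symbol out of 40879 gene symbols in the count tables, and all 10 were listed there. The family was picked because Anxa9 was among the genes the study named for their difference between these same libraries, so the values below describe the data and are not independent evidence.

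Both groups were untreated mice on a C57BL/6 background, 8 weeks old when they were assigned to groups. The ERAP1+/- mice carried 1 copy of an allele derived from tm1a, made from a targeted embryonic stem cell clone and bred with a Cre strain that removes the exons between its loxP sites, and the WT mice carried none. Neither the Cre line nor the section of the intestine is given in the labels, while the study's abstract names colonic tissue. RNA of 3 mice was pooled in equal amounts per genotype and made into 1 library, so no spread between animals can be measured and no test between genotypes was run. The libraries were made with QuantSeq, which reads the 3′ end of polyadenylated RNA, and held 8114826 reads (WT) and 8907515 reads (the library labelled ERAP1+/-). A gene yields about 1 tag per transcript, whatever its length. All intervals are 95% intervals for counting error alone.

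The targeted gene Erap1 had 229 reads in WT and 2 in the library labelled ERAP1+/-, which is 0.730% of the WT level (0.0878 to 2.67%) after scaling. This is far under the level of 1 intact copy of 2, and tags at the 3′ end lie outside the deleted exons, so the value does not check the deletion itself. The pools also differed in sex-linked RNA. Xist, transcribed from the inactive X chromosome, had 1635 reads in WT and 6451 in the other library, and the Y-linked gene Ddx3y had 319 and 29. Genes of the suprabasal epidermis, hair follicle and skeletal muscle were nearly missing from the library labelled ERAP1+/-. In sum they had 3559, 131 and 1394 CPM in WT and 23.3, 1.61 and 24.6 CPM there. Genes of basal stratified epithelium were lower but present, at 1209 CPM in WT and 512 CPM in the other library. More values are given further down beside the annexins. The part of these differences in the annexin values was not tested. In bulk RNA, fewer cells of a type and less RNA per cell cannot be told apart.

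Annexins are cytosolic proteins that bind acidic phospholipids of membranes when calcium rises, through a core of repeated annexin domains. The family differs mainly in the N-terminal tail, which binds partners such as S100 proteins, and its members act in membrane repair, vesicle fusion, endocytosis and the control of inflammation. Anxa1 is induced by glucocorticoids and its N-terminal peptide acts on formyl peptide receptors of leukocytes. Anxa2 pairs with S100a10 at the plasma membrane, Anxa8 is known from stratified epithelia, and Anxa9, also called pemphaxin, is known from keratinocytes and has lost the usual calcium-binding residues. Anxa10 is a marker of gastric epithelium.

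The start regions of the members with the lowest ratios between the libraries, Anxa1, Anxa8 and Anxa9, are printed here beside that of Anxa2, the most abundant member. RefSeq (GRCm38.p6) gave windows of 250 bases before to 50 bases after the start for 8 of the 10 members, 11 windows in all, with none used for Anxa3 and Anxa6. Each is written 5′ to 3′ on the strand of the gene, and capitals mark CG pairs and, where present, the letters TATAAA. The windows lie at chr19:20390622-20390921 (minus strand) for Anxa1, chr9:69453433-69453732 (plus strand) for Anxa2 and chr14:34085729-34086028 (plus strand) for Anxa8. Anxa9 has a proximal start at chr3:95307143-95307442 and a distal one at chr3:95315131-95315430, both on the minus strand.
Anxa1: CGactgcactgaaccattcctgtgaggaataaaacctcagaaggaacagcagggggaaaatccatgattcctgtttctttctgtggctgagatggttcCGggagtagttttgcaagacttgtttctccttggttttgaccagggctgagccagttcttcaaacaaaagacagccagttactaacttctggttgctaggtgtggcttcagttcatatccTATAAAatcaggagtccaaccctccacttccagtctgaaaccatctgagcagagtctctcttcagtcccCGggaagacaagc
Anxa2: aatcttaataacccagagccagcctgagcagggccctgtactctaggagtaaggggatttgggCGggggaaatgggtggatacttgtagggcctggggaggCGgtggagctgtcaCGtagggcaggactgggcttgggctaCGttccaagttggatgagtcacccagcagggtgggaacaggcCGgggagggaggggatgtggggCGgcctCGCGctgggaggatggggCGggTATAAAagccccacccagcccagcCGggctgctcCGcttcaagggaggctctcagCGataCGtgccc
Anxa8: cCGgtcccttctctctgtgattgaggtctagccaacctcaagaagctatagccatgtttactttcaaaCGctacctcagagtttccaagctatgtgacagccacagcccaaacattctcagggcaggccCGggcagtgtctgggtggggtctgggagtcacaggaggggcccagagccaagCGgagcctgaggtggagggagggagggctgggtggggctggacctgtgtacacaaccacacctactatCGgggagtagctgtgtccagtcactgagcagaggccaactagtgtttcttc
Anxa9, proximal start: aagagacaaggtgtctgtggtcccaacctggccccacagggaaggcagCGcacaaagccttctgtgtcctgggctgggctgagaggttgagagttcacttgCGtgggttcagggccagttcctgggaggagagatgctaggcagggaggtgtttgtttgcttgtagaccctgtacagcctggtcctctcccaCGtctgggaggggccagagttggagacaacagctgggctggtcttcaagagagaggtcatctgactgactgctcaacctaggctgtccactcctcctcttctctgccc
Anxa9, distal start: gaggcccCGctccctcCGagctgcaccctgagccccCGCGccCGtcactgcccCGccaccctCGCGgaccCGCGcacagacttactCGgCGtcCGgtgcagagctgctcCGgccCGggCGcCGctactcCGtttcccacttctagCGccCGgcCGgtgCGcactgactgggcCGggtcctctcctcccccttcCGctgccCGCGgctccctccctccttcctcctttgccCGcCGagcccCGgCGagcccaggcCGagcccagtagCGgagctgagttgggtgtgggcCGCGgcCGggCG

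The Anxa1 and proximal Anxa9 windows were poor in CG pairs, with 3 each, and the Anxa8 window held 5. The Anxa2 window held 13 CG pairs and the distal Anxa9 window 36, against a median of 7 over all 32851 windows of this length. The GC content was 47.3% for Anxa1, 63.7% for Anxa2, 57.3% for Anxa8, 58.3% for the proximal and 75.7% for the distal Anxa9 window, with a median of 52.7% over all windows. The distal Anxa9 window lies inside Cers2, a ceramide synthase gene that starts at position 95314791 on the opposite strand. The letters TATAAA were searched on both strands and occurred in 3 of the 11 windows, those of Anxa1, Anxa2 and Anxa10, against 13.6% of all windows. TGANTCA, the AP-1 motif, occurred in 2 of 11 (Anxa2 and Anxa10) against 7.81%, GGGCGG in 4 of 11 against 35.7%, and CCAAT in none against 37.4%. The 2 Anxa7 windows overlap and share a GGGCGG site, so the 11 windows are not all separate. No motif of the 4 was in the windows of all 3 genes with the lowest ratios. Tags at the 3′ end do not tell which start a transcript used.

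Levels are given as CPM, the reads of a gene scaled to a common library size, after edgeR's TMM scaling, and differences as log2(CPM + 1) in the library labelled ERAP1+/- minus WT. A gene was called where this difference passed 1 in size, which is 2-fold, and its log2(CPM + 1) reached 4 in 1 or both libraries. Of the 10 annexins, 9 passed the level. Anxa1, Anxa8 and Anxa9 were called lower, none was called higher, and 6 were not called. Over all genes, 8013 passed the level and 5.34% were called, 3.96% lower and 1.39% higher. Scaling by total reads instead of TMM turned the split over all genes from 111 higher and 317 lower to 166 higher and 248 lower, and moved the median difference of genes past the level from -0.03 to 0.11. It also ended the call of Anxa9, whose WT level was then 3.99, while its difference was -2.29, and left Anxa1 and Anxa8 called. The median difference of the 9 annexins with reads was -0.44 on this log2 scale, beside -0.03 over all genes past the level. Of these 9, Anxa9 passed the level in WT alone. Anxa8 was the called member nearest the 2-fold limit, with a difference of -1.13, and Anxa2 the nearest below it, with -0.83.

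**Figure D1:**
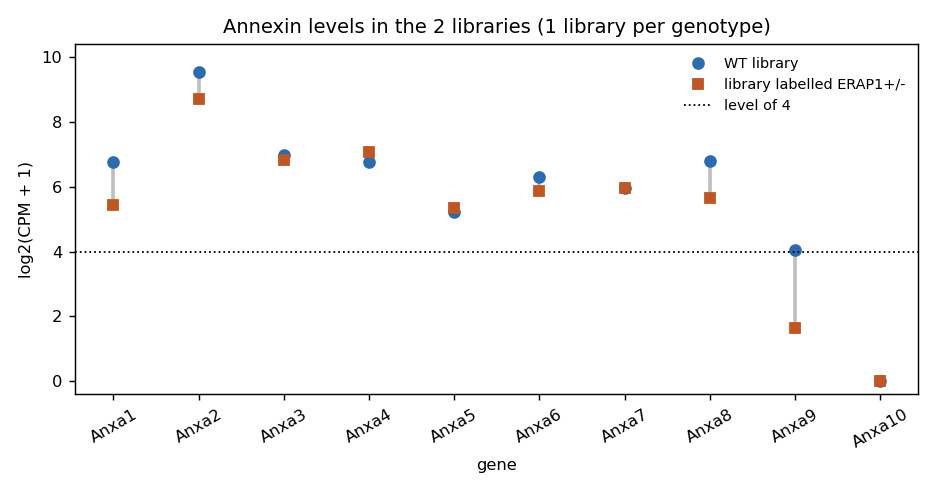
Level of each annexin in the 2 libraries, as log2(CPM + 1) on the vertical axis, with 1 point for each library and no error bars because each genotype has 1 library. Anxa2 is highest in both libraries, at 9.53 in WT and 8.70 in the other, and Anxa9 shows the widest gap, from 4.05 to 1.66.

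Anxa9 had the lowest ratio between the libraries among the members with reads. It had 121 reads in WT and 20 in the library labelled ERAP1+/-, or 15.6 and 2.15 CPM. The ratio to WT was 0.138 (0.0814 to 0.223), a 7.24-fold lower level (4.49 to 12.3), with a difference of -2.40 on the log2(CPM + 1) scale. Its WT level of 4.05 lay just above the limit of 4, and 1.67% of all genes past the level had a difference as low or lower. The gene lies at chr3:95296096-95307176 (GRCm38, minus strand), with 13 exons in its longest protein-coding transcript of 1872 bases.

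The last exon of Anxa9 overlaps the 3′ end of Mindy1 on the opposite strand over 71 bases, from position 95296096 to 95296166. Tags of this protocol are expected there, but read positions were not examined. Mindy1, which encodes a deubiquitinase, had 735 and 903 reads and a ratio of 1.03 (0.930 to 1.13). How the counting treated strand is not given in the sources used here, so reads in the shared bases could be counted for either gene or for neither. The other close neighbours were not called either. Prune1 had 264 and 328 reads with a ratio of 1.04 (0.880 to 1.23), and Cers2 had 463 and 690 reads with a ratio of 1.24 (1.10 to 1.40). Setdb1, a histone H3 lysine methyltransferase gene, had 51 and 67 reads, under the level. Anxa9 lies 2002410 bases from Flg, the filaggrin gene, on the same chromosome.

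The 5 genes nearest to Anxa9 were taken by Euclidean distance in the mean log2(CPM + 1) of the 2 libraries and its difference between them. They were Cmya5, Gsdmc, Krt78, Cyp26b1 and Chit1. Cmya5, a gene of striated muscle, had 130 reads in WT and 20 in the other library, at a distance of 0.109. Gsdmc, a gasdermin gene, had 129 and 19 reads, at 0.138. Krt78, a keratin gene, had 124 and 16 reads, at 0.261. Cyp26b1, which breaks down retinoic acid, had 132 and 28 reads, at 0.328, and Chit1, a chitinase gene, had 135 and 14, at 0.488. With 2 libraries, likeness of this kind means only a like level in each.

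Anxa1 and Anxa8 were the other members called lower. Anxa1 had 831 reads in WT and 389 in the library labelled ERAP1+/-, or 106.9 and 41.8 CPM, and its ratio was 0.391 (0.346 to 0.442). This is 2.56-fold lower (2.26 to 2.89), and 2.48% of genes past the level had a difference as low or lower. Anxa8 had 846 and 458 reads, or 108.9 and 49.2 CPM, with a ratio of 0.452 (0.403 to 0.507), 2.21-fold lower (1.97 to 2.48). For Anxa8, 3.16% of genes past the level lay as low or lower. In WT both genes had nearly the same level as Anxa4, at 108.2 CPM, while in the other library they had less than 0.5 of it. Their last exons overlap genes of the opposite strand that had few or no reads, 1500015L24Rik with 0 and 0 reads for Anxa1 and A630023A22Rik with 3 and 2 for Anxa8. Anxa1 lies at chr19:20373428-20390944 (minus strand) and Anxa8 at chr14:34085981-34100571 (plus strand), so the 3 called members sit on different chromosomes.

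**Figure D2:**
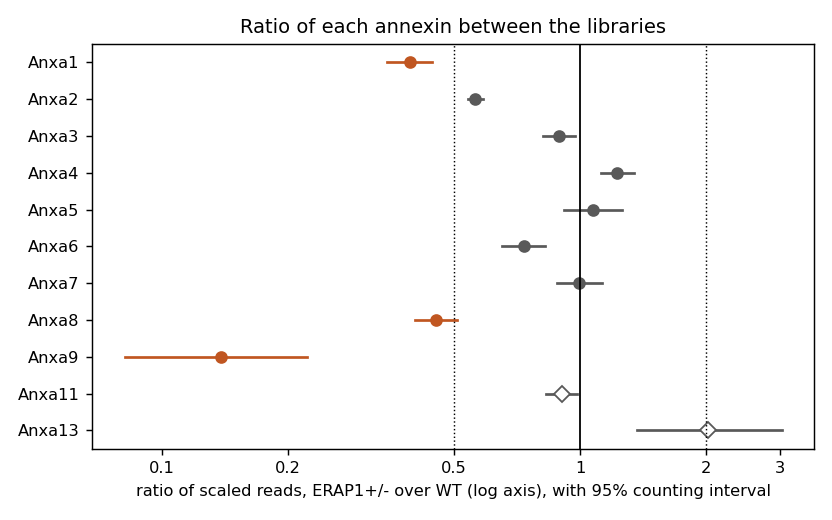
Ratio of the scaled counts, library labelled ERAP1+/- over WT, for each annexin on a log axis, with bars for the exact 95% interval of counting error. Anxa9 (0.138), Anxa1 (0.391) and Anxa8 (0.452) lie below 0.5, and Anxa4 (1.23) is the member whose interval lies above 1.

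Anxa2 was the most abundant annexin in both libraries and was not called. It had 5740 reads in WT and 3861 in the library labelled ERAP1+/-, or 738.7 and 415.1 CPM. The ratio was 0.562 (0.539 to 0.585), 1.78-fold lower (1.71 to 1.85), and 5.58% of genes past the level had a difference as low or lower. S100a10, which forms the Anxa2 tetramer, had 4319 and 3040 reads and a ratio of 0.588 (0.561 to 0.616). Anxa2 lies at chr9:69453620-69491795 (plus strand).

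Anxa3 to Anxa7 were each within 2-fold. Anxa4, which is found in secretory epithelia, was higher, with 841 reads in WT and 1237 in the other library and a ratio of 1.23 (1.12 to 1.34). Anxa5, the phosphatidylserine-binding annexin used to stain dying cells, had 284 and 365 reads and a ratio of 1.07 (0.917 to 1.26). Anxa7, or synexin, which joins secretory granules in the test tube, had 474 and 565 reads and a ratio of 0.996 (0.880 to 1.13). The counting intervals of Anxa5 and Anxa7 held 1. These intervals leave out the spread between animals, so no ratio here tests a genotype difference.

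Anxa3, a cytosolic and granule protein of neutrophils, had 978 and 1040 reads and a ratio of 0.888 (0.813 to 0.970). Anxa6, whose annexin core is duplicated, had 603 and 529 reads and a ratio of 0.733 (0.651 to 0.825). Summed, Anxa3 to Anxa7 gave 409 CPM in WT and 402 CPM in the other library, with a ratio of 0.981 (0.936 to 1.03). These 5 members lie at chr5:96793339-96845966 (Anxa3, plus strand), chr6:86736840-86793584 (Anxa4, minus strand), chr3:36448923-36475894 (Anxa5, minus strand), chr11:54979108-55033445 (Anxa6, minus strand) and chr14:20455260-20480133 (Anxa7, minus strand).

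Anxa10 had 0 reads in both libraries, which allows up to 0.386 CPM in WT and 0.322 CPM in the library labelled ERAP1+/-, taking 3 reads as the limit, and it was given no ratio. It lies at chr8:62057042-62123150 (minus strand). Of 8 genes of gastric epithelium, none reached 10 reads over both libraries, with 4 reads in WT and 2 in the other library in sum. Of the annexins outside the group of 10, Anxa11, which binds the calcium sensor Pdcd6, had 1027 and 1110 reads and a ratio of 0.903 (0.829 to 0.984). Anxa13, an annexin of intestinal epithelium, had 38 and 92 reads and a ratio of 2.02 (1.37 to 3.03), and was under the level of 4 in both libraries.

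**Figure D3:**
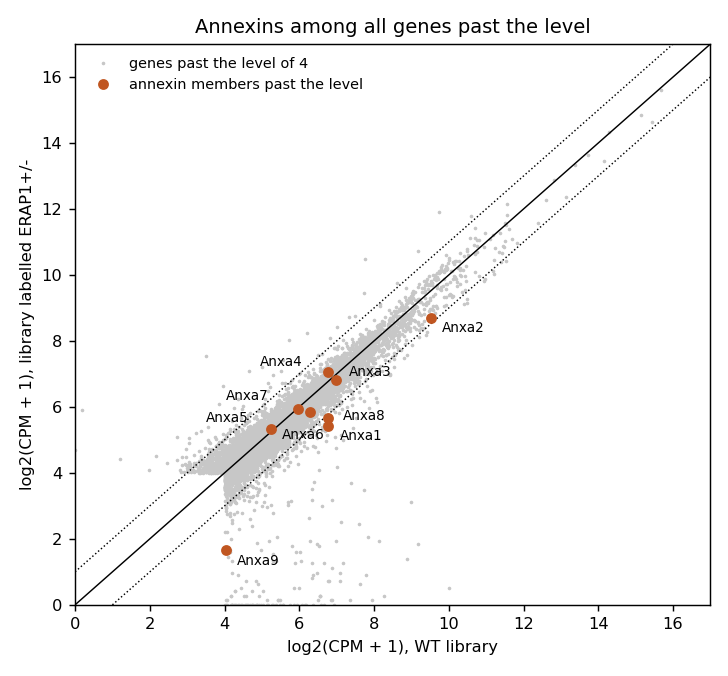
Each gene past the level of 4 as a grey point, by log2(CPM + 1) in the WT library (horizontal) and in the library labelled ERAP1+/- (vertical), with the 9 annexins past the level in colour, a solid line at equal levels and dotted lines at 2-fold. Anxa9, Anxa1 and Anxa8 lie below the lower dotted line and Anxa2 just above it.

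Reads of the 10 annexins summed to 10718 in WT and 8464 in the library labelled ERAP1+/-. These were 0.132% (Wilson interval 0.130 to 0.135%) and 0.0950% (0.0930 to 0.0971%) of all reads. After scaling, the family total was 1379 CPM in WT and 910 CPM in the other library, a ratio of 0.660 (0.641 to 0.679). Without Anxa2 the ratio was 0.772 (0.742 to 0.804).

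The makeup of the annexin reads also differed between the libraries, a measure that needs no scaling. Anxa2 took 53.6% of annexin reads in WT and 45.6% in the library labelled ERAP1+/-. Anxa4 took 7.85% and 14.6%, and Anxa3 9.12% and 12.3%, so Anxa4 ranked below Anxa3 and Anxa8 by reads in WT and next after Anxa2 in the other library. Anxa1 took 7.75% and 4.60%, Anxa8 took 7.89% and 5.41%, and Anxa9 took 1.13% (0.946 to 1.35%) and 0.236% (0.153 to 0.365%). Anxa5 took 2.65% and 4.31%, Anxa7 4.42% and 6.68%, and Anxa6 5.63% and 6.25%. The Wilson intervals of the 2 libraries overlapped for Anxa6 and for no other member with reads. Shares sum to the whole, so a smaller share of Anxa2 raises those of the others.

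**Figure D4:**
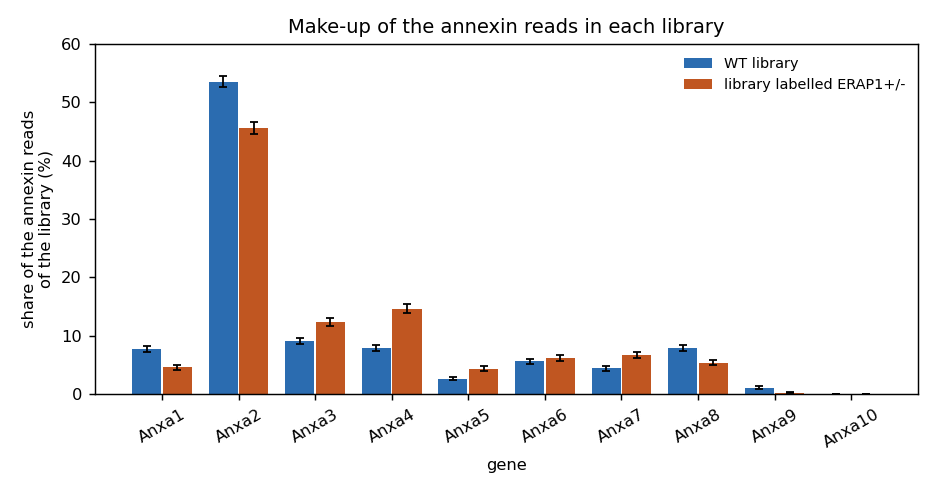
Share of each annexin among the reads of all 10 in the same library, in percent, with bars for the Wilson 95% interval of counting error. Anxa2 leads with 53.6% in WT and 45.6% in the library labelled ERAP1+/-, and Anxa4 has 7.85% and 14.6%.

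Per kilobase of the longest protein-coding transcript, Anxa2 stood at 511 CPM per kb in WT. It was followed by Anxa3 at 78.9, Anxa1 at 63.9, Anxa8 at 57.9, Anxa4 at 53.3, Anxa6 at 31.2, Anxa5 at 21.1, Anxa7 at 21.01 and Anxa9 at 8.32 CPM per kb. In the library labelled ERAP1+/- the order was Anxa2 at 287, Anxa3 at 70.1, Anxa4 at 65.5, Anxa8 at 26.2, Anxa1 at 25.0, Anxa6 at 22.8, Anxa5 at 22.7, Anxa7 at 20.9 and Anxa9 at 1.15 CPM per kb. On this scale Anxa1 and Anxa8 lay close to Anxa5, Anxa6 and Anxa7 there, within 20.9 to 26.2 CPM per kb. In CPM the same genes ran from 39.2 (Anxa5) to 60.7 (Anxa7) in that library. Neighbours such as Anxa5 and Anxa7 in WT cannot be ordered per kilobase without replicate spread. In CPM this pair stood at 36.5 and 61.0 in WT. Tags of the 3′ end do not grow with length, so the per-kilobase scale lowers long transcripts such as Anxa6 and Anxa7.

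Genes of the pathways around the annexins were mostly within 2-fold, as were most genes. Of all genes with 10 reads or more in 1 or both libraries, 9.06% passed 2-fold. A small list with none past 2-fold therefore says little about its pathway. Of 8 S100 and EF-hand partners, none passed 2-fold, with a median difference of -0.16. S100a6, the partner with the most reads, had 21864 and 17430 reads and a ratio of 0.666. Of 12 genes of membrane repair, none passed 2-fold, with a median of -0.33. Ahnak, a giant scaffold protein that binds Anxa2 with S100a10, had 10118 and 6636 reads and a ratio of 0.548 (0.531 to 0.565), and Chmp4b, of the ESCRT-III complex, had 2956 and 3177 reads and a ratio of 0.898.

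Of 7 genes of the Anxa1 and glucocorticoid axis, 5 had 10 reads or more and none passed 2-fold, with a median of -0.35. Nr3c1, the glucocorticoid receptor, had 606 and 769 reads and a ratio of 1.06, and Dusp1, a phosphatase induced by glucocorticoids, had 511 and 478 and a ratio of 0.781. Tsc22d3, also induced by glucocorticoids, had 528 and 425 reads and a ratio of 0.672. Pla2g4a, the cytosolic phospholipase A2 that Anxa1 is known to inhibit, had 100 and 207 reads and a ratio of 1.73 (1.36 to 2.22). The receptors Fpr1 (1 and 1 reads) and Fpr2 (2 and 6 reads) were too low to compare. Of 6 genes of plasminogen activation, 4 had 10 reads or more, all under the level of 4, with a median of 0.10. Plau, which encodes urokinase, had 33 and 38 reads. Plaur, the urokinase receptor, was the 1 gene of this list lower by more than 2-fold. It had 32 and 14 reads and a ratio of 0.365 (0.180 to 0.705).

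Marker lists of skin and skeletal muscle had larger differences than the annexins. For scale, 9.06% of all genes with 10 reads or more in 1 or both libraries passed 2-fold in either direction. All 14 genes of the suprabasal epidermis were lower by more than 2-fold in the library labelled ERAP1+/-, with a median difference of -5.97, a summed level of 3559 CPM in WT and 23.3 CPM in the other library, and 5 of the 14 at 0 there. Flg, the filaggrin precursor of the cornified layer, had 7952 and 4 reads, and Spink5, a protease inhibitor of the epidermis, had 4453 and 24. Of 11 genes of basal stratified epithelium, 8 were lower by more than 2-fold and 1 was at 0, with a median of -1.99 and a sum of 1209 and 512 CPM. In this list Sfn had 2665 and 1178 reads and Perp 2089 and 1260. All 7 sebaceous gland genes (median -3.26, 263 and 34.2 CPM, 2 at 0) and all 6 hair follicle genes with 10 reads (median -3.32, 131 and 1.61 CPM, 5 at 0 of the 7 listed) were lower by more than 2-fold. Scd3, a desaturase of sebocytes, had 881 reads and 1 read, while Fa2h of the same list had 487 and 282. Tchh, trichohyalin of the hair sheath, had 507 and 14, and Krt25 had 297 and 0. With genes at 0 set to 3 reads, the medians were -5.77 for suprabasal epidermis, -1.94 for basal epithelium, -3.26 for sebaceous gland and -2.91 for hair follicle.

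Of 14 skeletal muscle genes, 13 were lower by more than 2-fold and 1 was at 0, with a median of -5.23 and a sum of 1394 and 24.6 CPM. Ttn, the giant spring protein of the sarcomere, had 2154 and 26 reads, and Acta1, skeletal alpha-actin, 1490 and 42. Of 10 smooth muscle genes 2 were lower by more than 2-fold, with a median of -0.89 and a sum of 10185 and 5345 CPM. All 10 were lower, with differences from -1.18 to -0.64. Acta2 had 18222 and 12927 reads, and Tagln had 18546 and 9767. The labelled tissue was present in both libraries. Of 14 intestinal epithelium genes, 2 were lower by more than 2-fold, with a median of -0.34 and a sum of 15327 and 11238 CPM. The share past 2-fold over all genes with 10 reads or more in 1 or both libraries was 9.06%. Lgals4, a galectin of the gut, had 22956 and 27348 reads, and Cdh1 had 18810 and 16678. Of 8 goblet cell genes, Muc2, the main mucin of the gut, was higher by more than 2-fold with 12020 and 32939 reads, and the median was 0.73. Zg16, the gene of this list with the most reads, had 23458 and 42072 and was within 2-fold. Skin and muscle markers were thus lower in the same library as Anxa1, Anxa8 and Anxa9, and their part in the annexin differences was not tested.

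Leukocyte and stromal lists had smaller medians, apart from neutrophil genes (1.35, or 1.21 with a 0 set to 3 reads). None of 8 macrophage, 8 endothelium or 7 fibroblast genes passed 2-fold, with medians of 0.05, 0.20 and -0.14. Beside this, 9.06% of all genes with 10 reads or more in 1 or both libraries passed it. Examples are C1qa (352 and 493 reads) and Csf1r (287 and 539) of macrophages and Kdr (272 and 412) and Pecam1 (283 and 369) of endothelium. Of fibroblasts, Dcn had 9267 and 7568 reads and Col1a2 had 6860 and 7410. Of 6 neutrophil genes, 4 had 10 reads or more, and of these 3 were higher and 1 was lower by more than 2-fold. S100a9 had 52 and 171 reads and Ly6g 2867 and 1367. The sum of the list went the other way from its median, at 382 CPM in WT and 186 CPM in the other library. Ly6g alone made up 369 and 147 CPM of it.

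**Figure D5:**
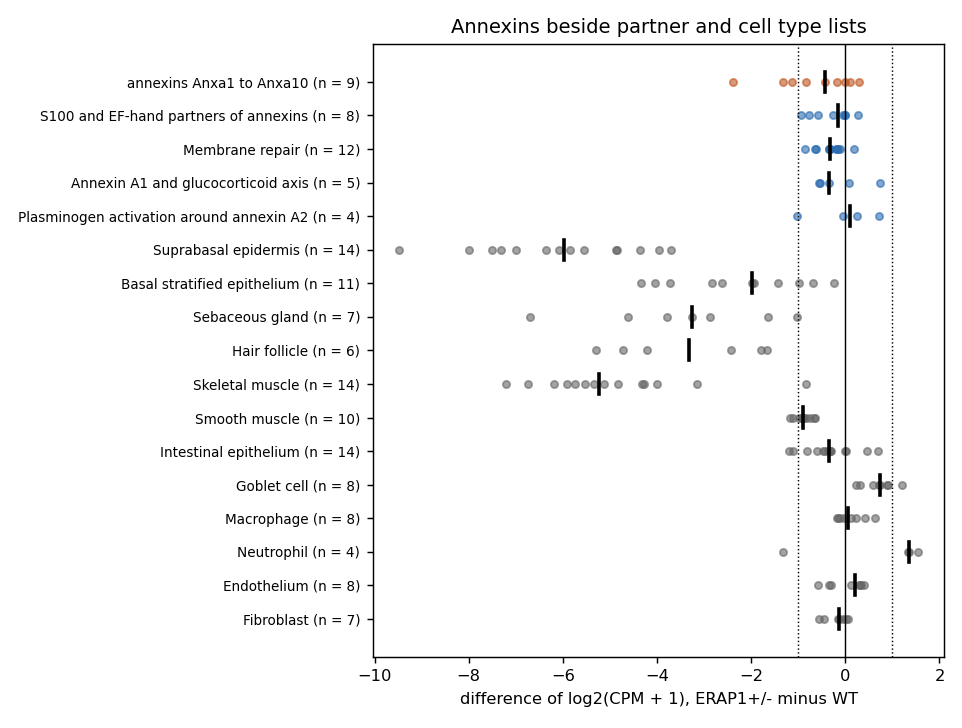
Difference of log2(CPM + 1), library labelled ERAP1+/- minus WT, for the genes of each list with 10 reads or more over both libraries, 1 point a gene, with a bar at the median of the list. The annexins have a median of -0.44, the suprabasal epidermis list -5.97, the skeletal muscle list -5.23 and the goblet cell list 0.73.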

How the data were processed

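The authors deposited 1 table of raw gene counts per library (deposited counts of reads per gene symbol, not normalized). Libraries were QuantSeq 3′ FWD, read on one strand of an Illumina sequencer, and the study's methods name 2 routes to counts, STAR with HTSeq and Bowtie2 with RSEM. Which route made these tables, and its strand setting, is not given in the sources used here. Depth was 8114826 and 8907515 reads, with mitochondrially encoded genes and ribosomal RNA at 18.0% and 16.7%. Counts were scaled by TMM (edgeR 4.0.16, R 4.3.3) and taken as log2(CPM + 1). With 1 library per genotype no count model was fitted. Genes past 2-fold with log2(CPM + 1) of 4 or more in 1 or both libraries were called. Intervals of ratios are exact conditional binomial and those of shares are Wilson (scipy 1.17.1). The calling and interval code was run on simulated counts with counting error alone, which checks the code and not the spread between animals. Positions come from GENCODE M21 (GRCm38) and promoter windows from RefSeq (GRCm38.p6).

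The members and lists were chosen with earlier results of these data known. Named were all members, Anxa11 and Anxa13, genes past 2-fold or otherwise the 2 with the most reads in each pathway list, 1 or both of the 2 with the most reads in each cell type list, the 5 genes nearest Anxa9, and its closest neighbours. Tsc22d3, Pla2g4a, Fpr1, Fpr2, Plaur, Xist and Ddx3y were named after their values were seen. Alternatives were other scalings, pseudocounts, levels and folds. 1 gene that this rule names is not reported here.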

Additional observations from a re-analysis of the deposited data

How the results depend on the processing

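The count of genes past 2-fold, 428 with the settings used, was 1390 with a filter of 10 reads in place of the level, 1434 with no filter, 160 at a level of 6 and 160 at 4-fold. It was 414, 429, 429 and 464 under total-count scaling, DESeq2 size factors, TMM without the skin and muscle lists, and a pseudocount of 0.1. At 4-fold, 1 annexin was called, Anxa9. Under total-count scaling, Anxa1 and Anxa8 (-1.01) were called and Anxa9 (-2.29) was not, because its WT level of 3.99 fell under 4, and at a level of 6 Anxa9 dropped out for the same reason. Anxa7 went from -0.0062 to 0.12 under total-count scaling. It was the only one of 9 members to change sign under the 3 other scalings and the pseudocount, and none of the 17 list medians did. The annexin share of the library was 0.145% in WT and 0.109% in the library labelled ERAP1+/- with Anxa11 and Anxa13 added. It was 0.161% and 0.114% without reads of mitochondrially encoded genes and ribosomal RNA. No paired analysis was possible because there was a single pooled library on either side, and no library could be left out for the same reason. Counting error limits Anxa9 in particular, at 20 reads in 1 library.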
